A study of Mus musculus with 24 samples.

Results

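The claudins described here are the 10 genes Cldn1, Cldn2, Cldn3, Cldn4, Cldn5, Cldn6, Cldn7, Cldn10, Cldn12 and Cldn18, taken by their symbols from the 49568 genes of each expression table. All 10 were present in both tables, and 9 passed the filter on low values in each experiment, whereas Cldn18 passed in neither. RNA-seq was performed on populations sorted from mouse liver and on ductal cells (DCs, the epithelium of the bile ducts) and stromal cells grown in transwells, to compare the ductal epithelium with the mesenchyme around it. The homeostasis experiment holds 12 samples, namely EpCAM+ DCs and 3 stromal fractions (PDGFRα+SCA1+, then PDGFRα+SCA1-, and PDGFRα-SCA1+) of mice A, E and F, 3 littermates of 12 weeks (n = 3 per fraction). All of these mice, of which A and E were male and F female, were heterozygous for B6.129S4-Pdgfratm11(EGFP)Sor/J on a C57BL/6 background, in which EGFP at the Pdgfra locus reports PDGFRα, and all 4 fractions were sorted as CD45-CD11b-CD31-. The transwell experiment holds 12 samples of wild type C57BL/6 mice of 8 to 12 weeks, in 6 groups with n = 2. These are DCs on the day of sorting (DCs day 0), organoids that DCs formed over 15 days in growth-factor-rich expansion medium (EM organoids), organoids formed over 15 days above SCA1+ stromal cells in mesenchymal medium (co-cultured organoids), and SCA1+ stromal cells (SCA1+Msc) on the day of sorting, after 15 days alone and after 15 days below the organoids, and SCA1+Msc were expanded for 7 days in mesenchymal medium before the co-culture. The SCA1+Msc were sorted from 2 littermates without selecting for PDGFRα, the DCs came from 2 other littermates, and the 2 cell types were separated by a membrane that cells do not cross.

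Claudins are membrane proteins with 4 transmembrane passes that form the strands of tight junctions, the seals that close the space between neighbouring epithelial or endothelial cells. Some claudins, such as Cldn1, Cldn3, Cldn4 and Cldn7, tighten this barrier, whereas others, such as Cldn2 and Cldn10, form pores for ions or water, and the set of claudins that a cell makes therefore determines what passes between cells. In the bile duct, tight junctions keep bile in the lumen and apart from blood and stroma.

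The homeostasis samples held 19630000 to 25650000 reads counted in genes and the transwell samples 19290000 to 28050000, as estimated from the values. A value below 3 reads was not told apart from absence, and this floor covers counting error only. The homeostasis table, deposited as TPM, held values of 0.722 to 1.39 times TPM, because column totals were reused down the table, and they are called deposited values here. The 7 ductal markers, among them Spp1, Krt19, Krt7 and Epcam, summed to deposited values of 56560 to 76150 in DCs and to TPM of 37130 to 53900 in DCs day 0 and organoids. Spp1 was the largest of the 7 in DCs, with a mean of 59300, and in DCs day 0 and organoids. It was also the largest on average in the PDGFRα-SCA1+ fraction (1255) and in SCA1+Msc day 0 (1434 TPM). Sums of these markers, and ratios to them, therefore depend strongly on this gene. Pdgfra averaged 82.3 ± 18.0 and 74.7 ± 24.2 (SD, n = 3) in the PDGFRα+SCA1+ and PDGFRα+SCA1- fractions and 0.0328 in the PDGFRα-SCA1+ fraction. The PDGFRα-SCA1+ fraction was low in 7 mesenchymal markers, which summed to 290 to 481 against 30320 to 53460 in the PDGFRα+ fractions. All 10 endothelial markers measured were present in its 3 samples, with sums of 3457 to 3813 against 5.03 to 27.0 in the other 9 samples, and Pecam1, which encodes the CD31 that the sort excluded, averaged 796 ± 116. In the transwell experiment, the 2 SCA1+Msc day 0 samples carried hepatocyte and ductal markers, whose values stand beside the claudins of those samples below. Expression in bulk RNA cannot tell fewer cells of a type from less RNA per cell.

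The 10 genes lie on 7 chromosomes in the GRCm38 annotation used here, and Cldn3 (chr5:134986214-134987472, plus strand) and Cldn4 (chr5:134945119-134946934, minus strand) are near neighbours. Cldn3 overlaps the antisense gene Wbscr25, Cldn18 the antisense gene Gm16004 and Cldn10 the ribosomal RNA gene n-R5s51. Because Smart-seq2 reads do not carry strand, reads of these pairs could not be told apart. The promoter windows of RefSeq on GRCm38.p6, 250 bases before to 50 bases after a start of transcription, were found for all 10 genes, with 15 windows in all. They are shown for Cldn3, Cldn4, Cldn6 and Cldn7, the 4 most abundant claudins of every DC sample of both experiments, and for Cldn2, which had the largest rise in organoids. Capitals mark CACCTG, the E-box that SNAIL and ZEB factors can bind, and GGGCGG, the GC box of SP factors, each also on the other strand, where they read CAGGTG and CCGCCC respectively. No marked motifs share bases in the windows shown. The windows are chr5:134985964-134986263 on the plus strand for Cldn3, chr5:134946885-134947184 on the minus strand for Cldn4, chr17:23679115-23679414 on the plus strand for Cldn6, chr11:69965171-69965470 on the plus strand for the Cldn7 start that holds the motifs, and chrX:139800558-139800857 on the plus strand for Cldn2. Each is written 5′ to 3′ along its gene.
Cldn3: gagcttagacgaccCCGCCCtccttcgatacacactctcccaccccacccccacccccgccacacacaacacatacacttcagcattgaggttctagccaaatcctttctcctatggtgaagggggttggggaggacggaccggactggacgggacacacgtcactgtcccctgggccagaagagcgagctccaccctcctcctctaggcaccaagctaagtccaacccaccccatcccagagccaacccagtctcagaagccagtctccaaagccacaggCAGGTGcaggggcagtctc
Cldn4: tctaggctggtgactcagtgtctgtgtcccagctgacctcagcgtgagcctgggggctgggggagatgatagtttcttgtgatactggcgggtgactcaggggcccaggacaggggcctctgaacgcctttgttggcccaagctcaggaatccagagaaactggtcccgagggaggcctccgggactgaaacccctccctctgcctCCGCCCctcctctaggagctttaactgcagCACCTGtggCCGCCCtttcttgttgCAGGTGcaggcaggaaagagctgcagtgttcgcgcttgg
Cldn6: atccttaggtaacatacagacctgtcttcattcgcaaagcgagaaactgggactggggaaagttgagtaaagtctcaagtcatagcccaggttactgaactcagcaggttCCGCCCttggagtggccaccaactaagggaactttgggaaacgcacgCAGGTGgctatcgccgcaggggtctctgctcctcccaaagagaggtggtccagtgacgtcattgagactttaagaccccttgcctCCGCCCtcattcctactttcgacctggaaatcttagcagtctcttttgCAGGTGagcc
Cldn7: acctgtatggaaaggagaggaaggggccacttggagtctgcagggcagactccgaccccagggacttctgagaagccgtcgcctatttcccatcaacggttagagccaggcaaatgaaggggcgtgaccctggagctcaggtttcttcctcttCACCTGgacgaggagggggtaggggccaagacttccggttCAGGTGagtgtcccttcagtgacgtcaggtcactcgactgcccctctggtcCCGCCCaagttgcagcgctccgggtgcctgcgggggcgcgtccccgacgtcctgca
Cldn2: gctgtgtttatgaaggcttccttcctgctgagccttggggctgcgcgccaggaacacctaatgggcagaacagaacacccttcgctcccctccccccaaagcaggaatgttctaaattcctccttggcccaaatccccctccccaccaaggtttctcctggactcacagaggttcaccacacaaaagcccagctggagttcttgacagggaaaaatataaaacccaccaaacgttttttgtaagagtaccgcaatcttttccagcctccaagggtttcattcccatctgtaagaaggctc

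The 6-base E-box occurred in the windows of 4 of the 10 genes, Cldn3, Cldn4, Cldn6 and Cldn7, with 1 copy for Cldn3 and 2 for each of the others. That is 4 of 15 windows (26.7%), against 20.2% of 32851 RefSeq promoters of the same length. The GC box was found in 9 of 15 windows (60%), against 35.7% of all promoters. The Cldn2 window held neither, but it was the single claudin window with TATAAA (6.67% of windows, 13.6% of all promoters). AACCGGTT, the motif of grainyhead factors, was in 0 of the 15 windows and in 0.146% of all promoters. These counts describe letters in a window and do not identify a bound site.

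In the healthy liver, 4 claudins made up nearly all claudin RNA of the DCs. Cldn4, which with Cldn3 serves as a receptor of Clostridium perfringens enterotoxin, was highest. It reached deposited values of 4864, 5963 and 4245 in the DCs of mice A, E and F, and stayed between 1.94 and 10.4 in the 6 PDGFRα+ samples. Cldn7, a barrier claudin that binds EpCAM, reached 1993, 2505 and 2130 in DCs and at most 11.4 in the PDGFRα+ samples. The groups did not overlap for either gene. Cldn3, a sealing claudin, stood at 1695, 1428 and 1252 in DCs, and at most 8.0 in PDGFRα+SCA1+ cells. In PDGFRα+SCA1- cells Cldn3 was 41.5 in mouse A and 2.40 and 1.63 in mice E and F, so that 1 stromal sample lay well above its partners. Of 7 mesothelial markers, 0 were at 0 in that sample, against 5 and 3 in mice E and F. These markers summed to 222.5, 62.38 and 165.8 in mice A, E and F, and their part in the Cldn3 values was not tested. Cldn6, best known from embryonic epithelia, was 514, 316 and 304 in adult DCs and 0 to 8.53 in the PDGFRα+ samples.

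**Figure D1:**
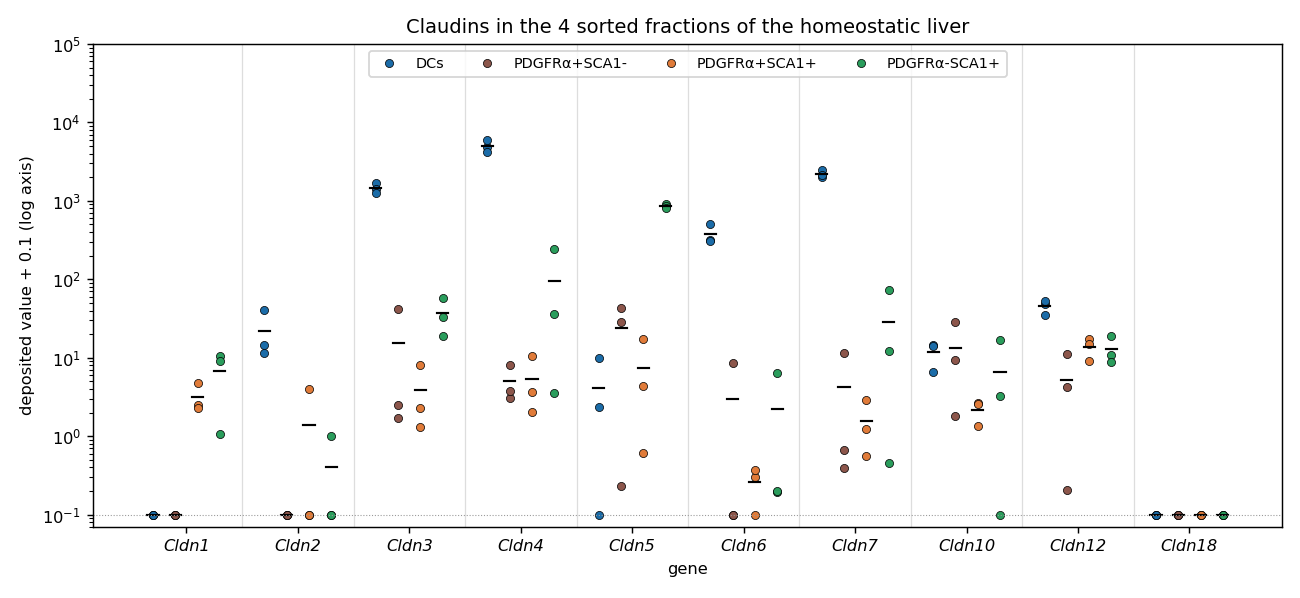
Deposited values + 0.1 (log axis) of the 10 claudins in the 12 homeostasis samples, with 1 point per mouse and a line at each fraction's mean. Cldn3, Cldn4, Cldn6 and Cldn7 are highest in all 3 DC samples, Cldn5 in all 3 PDGFRα-SCA1+ samples, and the dotted line is 0.

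Against PDGFRα+SCA1+ cells, 5 of the 9 claudins tested were higher in DCs and 1 was lower (limma, Benjamini-Hochberg adjusted p under 0.05), where 23.8% of all genes passed, 14% higher and 9.85% lower. The median difference of the 9 claudins was 3.56 on the log2(value + 1) scale, against 0.28 over all genes tested. Cldn7 differed by 9.91 ± 1.2 (SE, adjusted p = 6.4e-05), Cldn4 by 9.86 ± 1.07 (adjusted p = 2.8e-05), Cldn3 by 8.51 ± 0.90 (adjusted p = 2.2e-05) and Cldn6 by 8.32 ± 0.93 (adjusted p = 3.6e-05). As ratios of mean deposited values, these were 1510-fold for Cldn7, 949-fold for Cldn4 and 385-fold for Cldn3, and no ratio is given for Cldn6, whose PDGFRα+SCA1+ mean rests on values of about 3 reads or fewer. Cldn2, the claudin of a cation and water pore, was far less abundant, with 11.5, 14.5 and 40.0 in DCs. In PDGFRα+SCA1+ cells it was 3.87 in mouse A and listed at 0 in mice E and F, and the difference was 3.56 ± 0.69 (adjusted p = 0.00237). Cldn12, an atypical claudin without the PDZ-binding tail of the classic members, was 34.5, 48.3 and 53.5 in DCs and 8.99, 17.4 and 14.8 in PDGFRα+SCA1+ cells. These 2 groups did not overlap, but the difference of 1.68 ± 0.72 did not pass the test (adjusted p = 0.118). It passed where only the 2 groups were fitted (adjusted p = 0.00312), as did Cldn10 (14.6, 14.1 and 6.49 against 2.55, 2.44 and 1.23, adjusted p = 0.188 over all fractions and 0.00663 in the smaller fit).

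The comparison with PDGFRα+SCA1- cells, which uses the same DC samples, gave 6 claudins higher in DCs and 0 lower of 9 tested, where 28.8% of all genes passed, 18.9% higher and 9.98% lower. The median difference of the claudins was 4.32, or 7.31 with Cldn2 set to its bound, against 0.47 over all genes. Cldn4 differed by 9.82 ± 1.07 (adjusted p = 2.8e-05), Cldn7 by 9.55 ± 1.2 (adjusted p = 8.5e-05), Cldn3 by 7.64 ± 0.90 (adjusted p = 4.9e-05) and Cldn6 by 7.44 ± 0.93 (adjusted p = 8.4e-05). Cldn2 was listed at 0 in all 3 PDGFRα+SCA1- samples and was at least 159-fold higher in DCs, against a floor of 3 reads in a library (adjusted p = 0.00055). Cldn12, at 4.14, 10.96 and 0.107 in PDGFRα+SCA1- cells, was 8.96-fold higher in DCs (difference 3.48 ± 0.72, adjusted p = 0.00321), and its value in mouse F rests on 3 reads (difference 2.54 without that sample). Cldn10, whose splice forms build pores for anions or cations, overlapped between these groups, with 1.73, 9.15 and 28.9 in PDGFRα+SCA1- cells (adjusted p = 0.826).

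In the 2 PDGFRα+ fractions, 0 of 9 claudins differed, where 0.587% of all genes passed (0.435% higher and 0.153% lower, 100 genes in both directions, or 20 with the mouse as a block). At an unadjusted p under 0.05 there were 1985 genes, and the claudins among them were Cldn1 and Cldn12. Cldn1, a barrier claudin that skin needs to hold water, was 2.38, 4.66 and 2.18 in PDGFRα+SCA1+ cells and listed at 0 in all 3 PDGFRα+SCA1- samples. The groups did not overlap, PDGFRα+SCA1+ cells were at least 27.3-fold higher against a floor of 3 reads in a library, and the difference of 1.98 ± 0.62 did not pass over all genes (adjusted p = 0.22). With a pseudocount of 0.1 in place of 1 it passed, and Cldn1 was then the 1 claudin called. The median difference of the claudins was -0.36, against 0.15 over all genes.

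Cldn1 was present in both SCA1+ fractions and missing from the homeostasis DCs. It was listed at 0 in all 3 DC samples, with floors of 0.0888 to 0.113, although it was present in each PDGFRα+SCA1+ sample and reached 10.4, 8.95 and 0.971 in PDGFRα-SCA1+ cells. PDGFRα+SCA1+ cells were at least 27.3-fold higher than DCs (adjusted p = 0.0366). This call was lost when any 1 of the 6 samples was left out (adjusted p from 0.0613 to 0.121) and under quantile normalization (adjusted p = 0.0696). PDGFRα-SCA1+ cells were at least 60.1-fold higher than DCs (adjusted p = 0.00878), a call that held with each of the 6 samples left out (adjusted p from 0.000375 to 0.0371).

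Cldn5, the claudin of endothelial junctions that gives brain vessels their tightness, was the claudin of the PDGFRα-SCA1+ fraction. Its deposited values there were 900, 850 and 820, a spread of 857 ± 40.6 (SD, n = 3). Among PDGFRα+ samples it varied from 0.129 to 42.5, with 0.507, 4.21 and 17.4 in PDGFRα+SCA1+ cells and 0.129, 42.5 and 28.3 in PDGFRα+SCA1- cells, and DCs had 9.74, 0 and 2.23. All 3 PDGFRα-SCA1+ samples stood above the other 9. Cldn5 was 117-fold higher than in PDGFRα+SCA1+ cells (difference 7.35 ± 1.31, adjusted p = 0.00172) and 215-fold higher than in DCs (difference 8.04 ± 1.31, adjusted p = 0.00067). The 10 endothelial markers moved with it, 10 of 10 higher than in PDGFRα+SCA1+ cells, and their part in the result was not tested.

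The PDGFRα-SCA1+ fraction had 2 of 9 claudins higher and 0 lower than the PDGFRα+SCA1+ fraction, where 18.8% of all genes passed, 10.9% higher and 7.86% lower. The claudins had a median difference of 0.84, against 0.25 over all genes. Beside Cldn5, Cldn3 passed, with 33.5, 57.7 and 19.1 against 2.16, 7.99 and 1.22 (9.69-fold, difference 3.11 ± 0.90, adjusted p = 0.0296). Without the PDGFRα-SCA1+ sample of mouse E the Cldn3 difference was 2.72 and did not pass (adjusted p = 0.102), and the call was lost in 4 of the 6 fits that left out 1 sample, with adjusted p up to 0.107. Cldn4 (3.41, 247 and 35.6, adjusted p = 0.11) and Cldn7 (0.349, 72.6 and 12.0, adjusted p = 0.232) were uneven in the PDGFRα-SCA1+ fraction and did not pass. Mouse E was the highest for Cldn3, Cldn4, Cldn6 and Cldn7 alike.

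Ductal markers were uneven in the same samples. The sum of the 7 ductal markers, as TPM with the reuse of totals undone, was 77.7, 4300 and 323 in the PDGFRα-SCA1+ samples of mice A, E and F, and 62520 to 69130 in DCs, and none of the 7 was at 0 in any of these 6 samples. For each 100 TPM of ductal markers, mouse E's PDGFRα-SCA1+ sample held 5.93 TPM of Cldn4, 1.47 of Cldn7 and 1.24 of Cldn3, and DCs held 7.25 to 7.80, 2.35 to 3.64 and 1.68 to 2.03. In mouse A, by contrast, Cldn3 was at 36.9 TPM for each 100 TPM of ductal markers, and Cldn4 at 5.21. Mouse F held 5.39 of Cldn3, 10.98 of Cldn4 and 3.57 of Cldn7. The 7 mesothelial markers summed to deposited values of 555.3, 683.6 and 481.9 in mice A, E and F, with 0, 4 and 4 of them at 0. Upk1b, Lrrn4 and Upk3b were above 0 only in mouse A, at 41.11, 21.19 and 48.28, whereas Gpm6a was 292.7 to 418 in all 3 samples. The 8 hepatocyte markers summed to 2905, 6584 and 2157 in the same samples of mice A, E and F, and to 5873 to 6983 in DCs. The part of ductal, hepatocyte or mesothelial RNA in the claudin values of this fraction was not tested.

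Against PDGFRα-SCA1+ cells, 7 of 9 claudins differed from DCs, 5 higher and 2 lower in DCs, where 22.8% of all genes passed, 11.3% higher and 11.5% lower. The median difference of the claudins was 4.004, against 0.04 over all genes. The 2 lower claudins were Cldn1 and Cldn5. Cldn7 was 78.1-fold higher in DCs (adjusted p = 0.00051), Cldn4 52.7-fold (adjusted p = 0.00036) and Cldn3 39.7-fold (adjusted p = 0.00078), and Cldn6 differed by 7.48 ± 0.93 (adjusted p = 8.9e-05) and Cldn2 by 4.004 ± 0.69 (adjusted p = 0.00104). Without the PDGFRα-SCA1+ sample of mouse E the difference went from 7.19 to 8.61 for Cldn4 and from 7.66 to 9.04 for Cldn7, and without that of mouse A to 5.71 and 6.15, and 7 claudins were called whichever of these samples was left out. Cldn10, at 16.5, 3.14 and 0 in PDGFRα-SCA1+ cells, overlapped with DCs (adjusted p = 0.335). Cldn12, at 10.7, 8.73 and 18.6, did not overlap and did not pass (adjusted p = 0.0966).

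**Figure D2:**
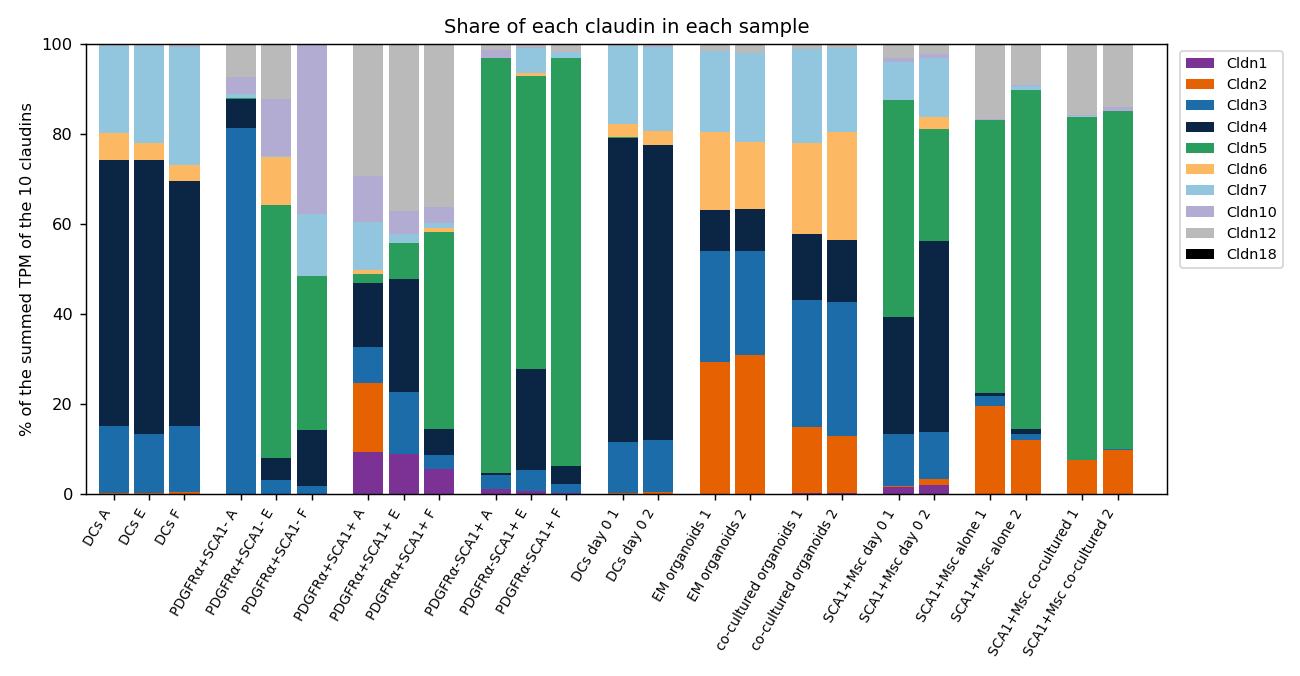
Share of each claudin in the summed TPM of the 10 claudins (%), 1 bar per sample, with the reuse of totals undone in the homeostasis samples. Cldn4 takes 54.3% to 61.0% in DCs and 67.6% and 65.4% in DCs day 0, whereas no claudin exceeds 30.8% in organoids, and Cldn5 takes 65.0% to 92.3% in PDGFRα-SCA1+ cells.

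Set against each other on the TPM scale, which accounts for gene length, the claudins of DCs kept 1 order in all 3 mice. The 10 genes summed to 8225 to 8846 TPM in DCs, which was 98.9% to 99.2% of all claudin symbols in the table. Of this sum, Cldn4 took 54.3% to 61.0%, Cldn7 19.2% to 26.3%, Cldn3 13.1% to 14.9% and Cldn6 3.52% to 6.08%, and the ranges of neighbouring genes did not overlap. The other 6 claudins together were the small remainder. PDGFRα-SCA1+ cells had 870 to 1137 TPM of claudins, of which Cldn5 made up 92.3%, 65.0% and 90.7% in mice A, E and F. The PDGFRα+ fractions had 31.4 to 82.7 TPM of the 10 claudins, and the leading claudin differed among their samples, with Cldn3, Cldn5, Cldn10 and Cldn12 each leading in at least 1.

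Genes that work with claudins were also compared between DCs and PDGFRα+SCA1+ cells. Of 27 tight junction partners 16 were higher and 4 lower, where 14% of all genes were higher and 9.85% lower, with a median difference of 3.28 against 0.28 over all genes. Ocln, the occludin of the same strands, differed by 8.03 ± 0.99 (adjusted p = 7.5e-05), Lsr, which seals corners where 3 cells meet, by 7.97 ± 0.74 (adjusted p = 8.1e-06) and Crb3, of the apical crumbs complex, by 7.89 ± 0.65 (adjusted p = 3.2e-06). The junction adhesion genes Jam3 (-4.11 ± 0.61), Esam (-3.29 ± 0.55) and Jam2 (-2.60 ± 0.37) were lower in DCs. Of 16 adherens junction and desmosome genes 12 were higher and 0 lower, led by Cdh1, the epithelial cadherin (10.62 ± 1.16, adjusted p = 2.8e-05). Of 18 epithelial and mesenchymal regulators tested 10 were higher, led by Elf3 (8.53 ± 1.07), and 4 lower, including Snai2 (-6.03 ± 0.40), Snai1 (-5.96 ± 0.40) and Zeb2 (-5.46 ± 0.34), which encode factors of the E-box shown above.

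In the DCs of the transwell experiment the 4 most abundant claudins were again Cldn4, Cldn7, Cldn3 and Cldn6. In DCs day 0, Cldn4 was 8353 and 7072 TPM in replicates 1 and 2, Cldn7 2158 and 2019, Cldn3 1382 and 1262, and Cldn6 348 and 342. Cldn2 was 33.4 and 40.6, Cldn12 48.6 and 58.9, and Cldn10 3.81 and 4.75. Unlike in the homeostasis DCs, Cldn1 was detected, at 0.895 and 2.12, and Cldn5 was 27.1 and 11.8. The 10 endothelial markers summed to 37.4 and 36.6 TPM in these samples, with none at 0, and their part in the Cldn5 values was not tested.

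**Figure D3:**
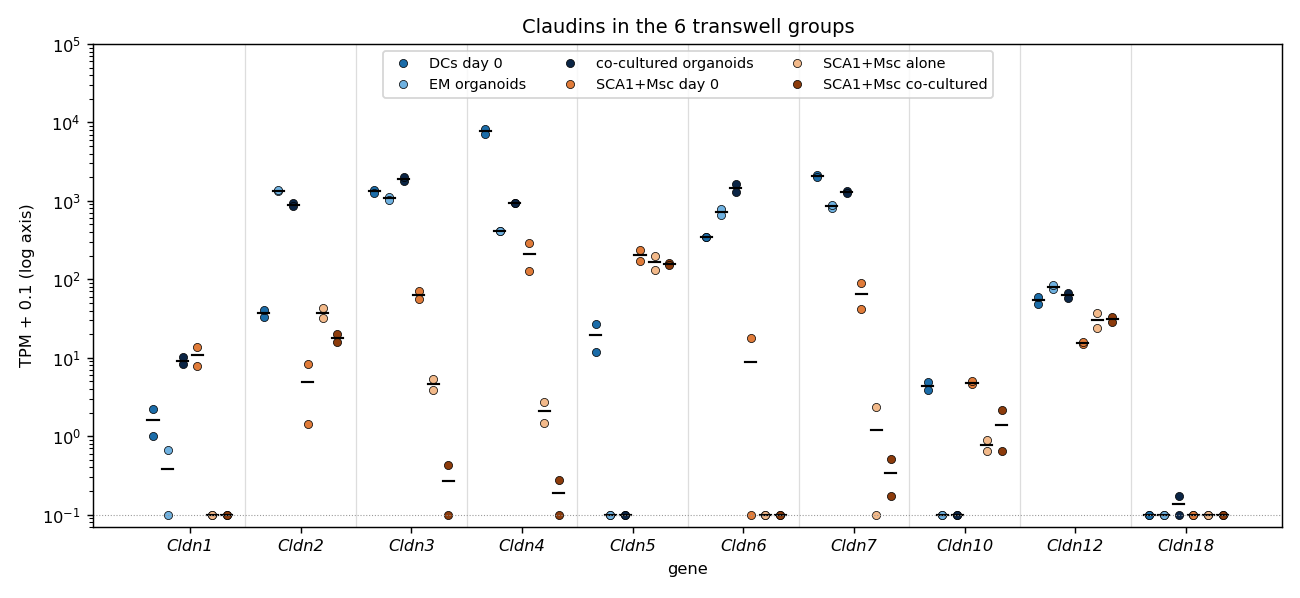
TPM + 0.1 (log axis) of the 10 claudins in the 12 transwell samples, with 1 point per replicate and a line at each group's mean. Cldn2 is at 865 TPM or more in all 4 organoid samples and at most 42.6 TPM elsewhere, and Cldn4 is highest in DCs day 0.

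In EM organoids, 1 of 9 claudins was higher and 3 were lower than in DCs day 0, where 44.4% of all genes passed, 27.1% higher and 17.2% lower. The share of claudins called was near that background, and their median difference was -0.96, against 0.12 over all genes. Cldn2 rose to 1322 and 1373 TPM, 36.4-fold (difference 5.16 ± 0.49, adjusted p = 3.1e-05). Cldn4 fell to 418 and 414 TPM, 18.5-fold lower than at day 0 (difference -4.20 ± 0.33, adjusted p = 9.1e-06). Cldn5 and Cldn10 were listed at 0 in both EM organoids, at least 58.5-fold lower for Cldn5 (adjusted p = 1.3e-05) and at least 23.6-fold lower for Cldn10 (adjusted p = 0.00045) against a floor of 3 reads in a library. The endothelial markers were lower too, 7 of 10 by the test, with sums that went from 37.4 and 36.6 TPM to 6.80 and 2.93 TPM with 8 and 9 of the 10 at 0, and their part in the fall of Cldn5 was not tested. Cldn3 (1117 and 1029), Cldn1 (0.561 and 0), Cldn6 (781 and 668), Cldn7 (813 and 883) and Cldn12 (74.2 and 84.8) did not pass. Their values did not overlap with day 0, but the share of all genes without overlap was not counted, here or in the other comparisons. Where only these 2 groups were fitted, 8 claudins passed, among them Cldn7 (adjusted p = 0.000153), Cldn6 (adjusted p = 0.000518) and Cldn12 (adjusted p = 0.0219). Of all genes, 8045 passed in the fit over all groups, and 6325 to 8765 across the alternatives to it, of which this fit is 1. Cldn6 has the widest error of the fit over all groups (SE 0.99), in which the SCA1+Msc day 0 samples differ at 0 and 17.5 TPM.

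In co-cultured organoids, 6 of 9 claudins differed from the same DCs day 0, 3 higher and 3 lower, where 42.3% of all genes passed, 23.2% higher and 19.1% lower. The median difference was 0.22, against 0 over all genes. Cldn2 rose to 931 and 865 TPM, 24.3-fold (difference 4.57 ± 0.49, adjusted p = 7.2e-05), and Cldn1 to 10.02 and 8.21 TPM, 6.06-fold (difference 2.05 ± 0.39, adjusted p = 0.00226). Cldn4 fell to 927 and 941 TPM, 8.26-fold lower than at day 0 (difference -3.04 ± 0.33, adjusted p = 7.4e-05). Cldn5 and Cldn10 were again listed at 0 in both samples, at least 69.1-fold (adjusted p = 1.4e-05) and at least 27.9-fold lower (adjusted p = 0.00049), and 7 of 10 endothelial markers were lower, with sums of 8.63 TPM and 8 of the 10 at 0 in each sample. Cldn3, at 1792 and 2029 TPM, was 1.45-fold higher (difference 0.53 ± 0.19, adjusted p = 0.049), a call lost with each of the 4 samples left out (adjusted p from 0.0913 to 0.218) and in 4 other settings. Cldn6, at 1285 and 1639 TPM, was 4.24-fold above DCs day 0 without overlap, and did not pass (difference 2.07 ± 0.99, adjusted p = 0.125), but passed where only these 2 groups were fitted (adjusted p = 0.000269). Cldn7 (1326 and 1267, adjusted p = 0.298) did not overlap with day 0, and Cldn12 (67.6 and 57.5, adjusted p = 0.462) did.

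Between the 2 kinds of organoids, 3 of 9 claudins were higher in co-culture and 0 lower, where 12.9% of all genes passed, 5.73% higher and 7.21% lower. These groups differ in medium as well as in the presence of SCA1+Msc, and the 2 cannot be told apart. The median difference of the claudins was 0.61, against -0.13 over all genes. Cldn1 differed most, with 10.02 and 8.21 TPM against 0.561 and 0 (32.5-fold, difference 3.01 ± 0.39, adjusted p = 0.00107), and passed with each of the 4 samples left out (adjusted p from 0.00491 to 0.0149). Cldn3 was 1.78-fold higher (difference 0.83 ± 0.19, adjusted p = 0.0195) and Cldn4 2.25-fold (difference 1.17 ± 0.33, adjusted p = 0.0466). Both calls were lost with each of the 4 samples left out, with adjusted p from 0.0704 to 0.124 for Cldn3 and from 0.164 to 0.178 for Cldn4. Cldn6 (2.02-fold, adjusted p = 0.617), Cldn7 (1.53-fold, adjusted p = 0.509) and Cldn2 (0.666-fold, adjusted p = 0.539) had no overlap between the groups and did not pass. They passed where only the 2 organoid groups were fitted, with adjusted p of 0.00447 for Cldn6, 0.00332 for Cldn7 and 0.0034 for Cldn2, and 6 claudins were then called. Of all genes, 2348 passed in the fit over all groups, and 1383 to 3257 across the alternatives to it. Cldn12 was 74.2 and 84.8 TPM in EM and 67.6 and 57.5 in co-culture (adjusted p = 0.37).

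**Figure D4:**
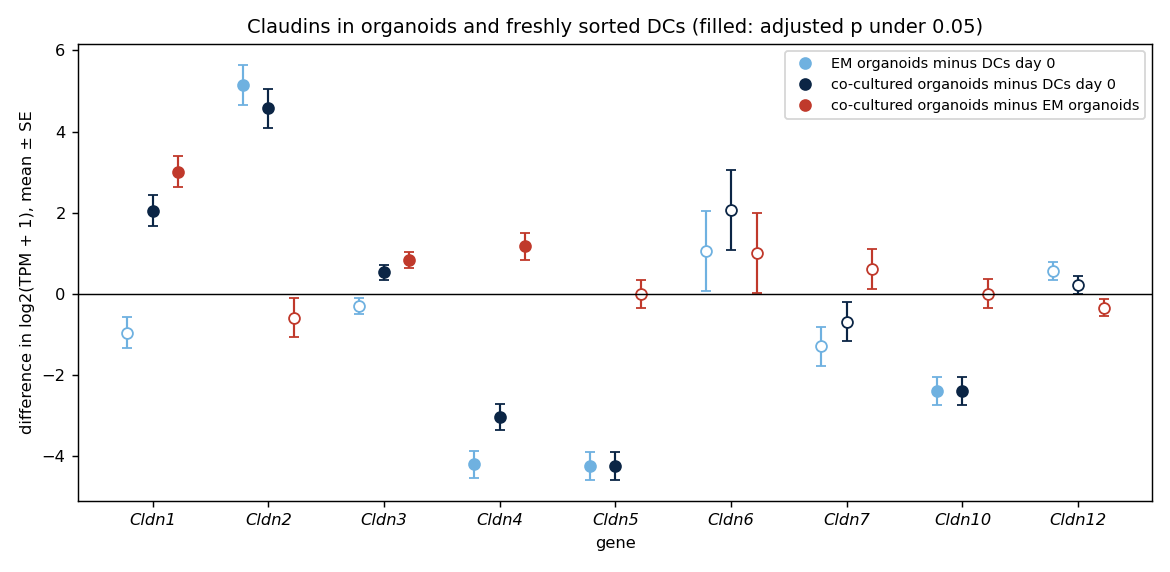
Differences in log2(TPM + 1) between organoids and DCs day 0 and between the 2 kinds of organoids for the 9 claudins tested, with bars of ± SE of the fit over 6 groups of n = 2. Cldn2 is higher and Cldn4, Cldn5 and Cldn10 are lower than in DCs day 0 in both kinds of organoids, and open points did not pass the adjusted p threshold of 0.05. Cldn5 and Cldn10 were at 0 in organoids, so that their plotted differences depend on the pseudocount.

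The order of the claudins in organoids was therefore not that of DCs day 0. Their sum was 12350 and 10810 TPM in DCs day 0, 4526 and 4453 in EM organoids and 6339 and 6807 in co-cultured organoids, and the 3 groups did not overlap. In EM organoids Cldn2 took 29.2% and 30.8% of the sum, Cldn3 24.7% and 23.1%, Cldn7 18.0% and 19.8%, Cldn6 17.3% and 15.0% and Cldn4 9.23% and 9.30%. In co-cultured organoids Cldn3 led with 28.3% and 29.8%, and Cldn7 (20.9% and 18.6%) and Cldn6 (20.3% and 24.1%) overlapped as the next. Cldn2 (14.7% and 12.7%) and Cldn4 (14.6% and 13.8%) overlapped too. The ductal markers differed less between these groups than Cldn4. Their sum was 51890 and 53900 TPM in DCs day 0, 48530 and 47270 in EM and 39470 and 37130 in co-culture, with none of the 7 at 0. For each 100 TPM of ductal markers, Cldn4 stood at 16.1 and 13.1 TPM in DCs day 0, at 0.861 and 0.876 in EM organoids and at 2.35 and 2.53 in co-cultured organoids. For each 100 TPM of Epcam alone, it stood at 270.8 and 242.7, 19.37 and 19.9, and 46.71 and 44.03 in the same groups.

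Junction partners moved in both directions in organoids. Of 27 tight junction partners, 5 were higher and 11 lower in EM organoids than in DCs day 0 (27.1% and 17.2% of all genes), with a median of -0.66 against 0.12 over all genes. In co-culture 3 were higher and 13 lower (23.2% and 19.1% of all genes), with a median of -0.80 against 0, and in each comparison 11 did not pass. Tjp3, a scaffold that claudin tails bind, rose by 1.69 ± 0.23 (adjusted p = 0.00029) in EM and by 2.42 ± 0.23 (adjusted p = 3.4e-05) in co-culture. Ocln fell by 1.76 (SE 0.58, adjusted p = 0.0336) in EM, and in co-culture its difference of -1.53 ± 0.58 did not pass (adjusted p = 0.0603). Between the 2 kinds of organoids, 0 of the 27 partners were higher in co-culture and 4 lower (5.73% and 7.21% of all genes), led by Jam3 (-3.30 ± 0.29, adjusted p = 0.00013). Of 18 regulators tested 1 was higher in co-culture, the intestinal factor Cdx2 (2.31 ± 0.27, adjusted p = 0.00059), and 0 lower, shares near those of all genes.

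Freshly sorted SCA1+Msc held the epithelial claudins at low levels. Cldn4 was 127 and 288 TPM, Cldn3 55.9 and 71.7, Cldn7 41.6 and 89.7 and Cldn6 0 and 17.5. Cldn5 was 236 and 169 TPM, and Cldn1 7.66 and 13.7. Against these samples, 6 of 9 claudins were higher and 2 lower in DCs day 0, where 46.1% of all genes passed, 24.7% higher and 21.4% lower, and the median difference was 3.03 against 0.07 over all genes. Cldn4 was 37.2-fold (adjusted p = 1.8e-06), Cldn7 31.8-fold (adjusted p = 2.6e-05), Cldn3 20.7-fold (adjusted p = 2.3e-07), Cldn6 39.4-fold (adjusted p = 0.00057) and Cldn12 3.54-fold higher in DCs day 0 (adjusted p = 0.00012), and Cldn2 differed by 3.03 ± 0.49 (adjusted p = 0.00074). Without replicate 1 and without replicate 2 of SCA1+Msc day 0 the difference was 4.23 and 8.43 for Cldn6, and 2.04 and 4.03 for Cldn2, and both genes passed in each case. Cldn5 was 10.4-fold (adjusted p = 4.3e-05) and Cldn1 7.10-fold higher in SCA1+Msc (adjusted p = 0.00121), and Cldn10 (4.51 and 4.96 TPM) overlapped with DCs (adjusted p = 0.829).

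**Figure D5:**
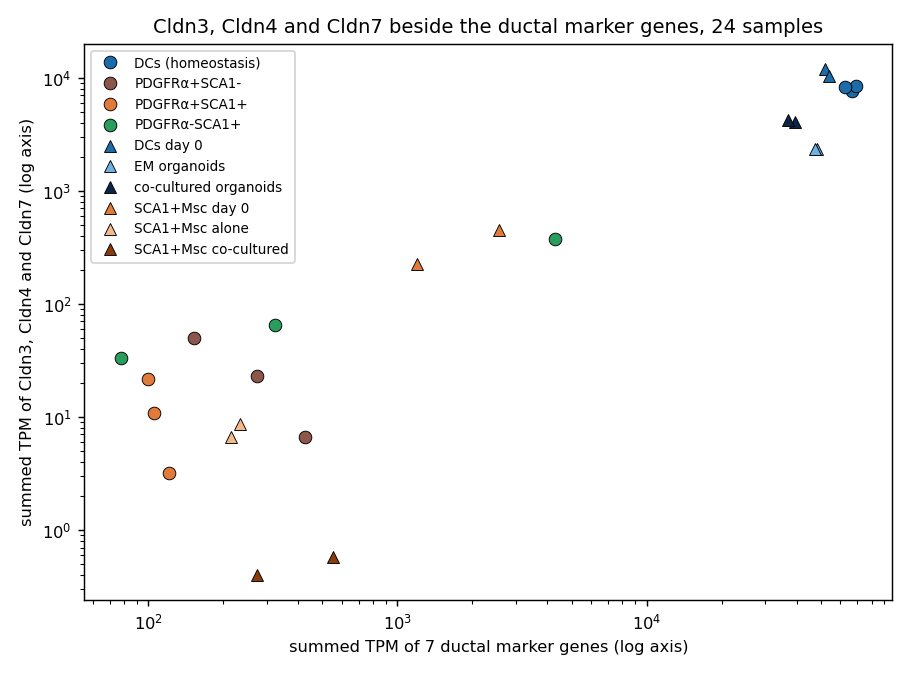
Summed TPM of Cldn3, Cldn4 and Cldn7 against the summed TPM of 7 ductal marker genes in all 24 samples, both on log axes, with circles for homeostasis and triangles for the transwell experiment. The PDGFRα-SCA1+ sample of mouse E (4300 TPM of ductal markers) and both SCA1+Msc day 0 samples (1199 and 2552 TPM) lie between the DCs and the other stromal samples.

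The SCA1+Msc day 0 samples also held ductal markers, with sums of 1199 and 2552 TPM and none of the 7 at 0. For each 100 TPM of ductal markers they had 10.6 and 11.3 TPM of Cldn4 and 3.47 and 3.52 of Cldn7, where DCs day 0 had 16.1 and 13.1 of Cldn4 and 4.16 and 3.74 of Cldn7. Cldn3 stood at 4.66 and 2.81, against 2.66 and 2.34. The 8 hepatocyte markers summed to 22470 and 17880 TPM in the same 2 samples, against 4250 and 5380 in DCs day 0, with none at 0. The 10 endothelial markers summed to 288 and 306 TPM, against 37.4 and 36.6. The part of RNA of these cell types in the claudin values was not tested.

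After 15 days alone, 5 of 9 claudins were lower and 2 higher in SCA1+Msc than at day 0, where 44.8% of all genes passed, 17.5% lower and 27.4% higher. The median difference was -2.10, or -3.55 with genes at 0 set to their bounds, against 0.19 over all genes. Cldn4 fell to 1.36 and 2.62 TPM (104-fold lower, adjusted p = 1.2e-06), Cldn7 to 0 and 2.23 (58.9-fold, adjusted p = 3.3e-05), Cldn3 to 5.28 and 3.77 (14.1-fold, adjusted p = 1.1e-06) and Cldn10 to 0.553 and 0.786 (7.07-fold, adjusted p = 0.00266). Cldn1 was listed at 0 in both, at least 127-fold lower (adjusted p = 9.1e-05). Ductal markers summed to 215 and 234 TPM in these cells, with 0 and 3 of the 7 at 0, and hepatocyte markers to 54.2 and 38.0 TPM, with 4 and 5 of the 8 at 0, and their part in these falls was not tested. Cldn2 rose from 1.32 and 8.23 to 42.6 and 31.6 TPM (7.77-fold, difference 3.03 ± 0.49, adjusted p = 0.00086), where the difference was 2.03 without replicate 1 and 4.02 without replicate 2 of SCA1+Msc day 0. Cldn12 rose from 14.8 and 15.6 to 36.6 and 24.02 TPM (2.0-fold, adjusted p = 0.00603, or 0.0563 where only these 2 groups were fitted). Cldn5, at 133 and 200 TPM, overlapped with day 0 (difference -0.29 ± 0.35, adjusted p = 0.54), while the endothelial markers summed to 142 and 227 TPM with 1 and 2 of the 10 at 0. These markers were split. Kdr, Flt4, Tek, Vwf and Stab2 were lower than at day 0 by the test, whereas Pecam1, Cdh5, Tie1, Emcn and Erg did not pass. Their part in the Cldn5 values was not tested.

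Below organoids, the claudins of SCA1+Msc were close to those of SCA1+Msc alone. Of 9 claudins 1 was lower and 0 higher, where 0.127% of all genes passed, 0.0331% lower and 0.0937% higher (23 genes, 1263 at an unadjusted p under 0.05), and the median difference was -0.04, against 0 over all genes. Cldn3 fell from 5.28 and 3.77 TPM to 0 and 0.330 TPM (difference -2.25 ± 0.19, adjusted p = 0.0107), where the value of 0.330 rests on 3 reads, so that no ratio is given. This call was lost without replicate 1 of SCA1+Msc alone (adjusted p = 0.0874), without replicate 1 of the co-cultured SCA1+Msc (adjusted p = 0.0936) and where only these 2 groups were fitted (adjusted p = 0.362). Cldn2 was 15.9 and 20.1 TPM in co-culture, 2.06-fold lower without overlap, and did not pass (adjusted p = 0.77). Cldn4, at 0.174 and 0 TPM, did not pass either (adjusted p = 0.211). Cldn5 (161 and 154), Cldn10 (0.549 and 2.03) and Cldn12 (33.4 and 28.7) overlapped with SCA1+Msc alone, and Cldn1 and Cldn6 were listed at 0 in all 4 samples. Cldn5 took 60.6% and 75.4% of the claudin sum in SCA1+Msc alone and 76.2% and 75.0% in co-culture.

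Cldn18, the claudin of stomach and lung epithelium, was listed at 0 in 23 of the 24 samples. The exception was replicate 1 of the co-cultured organoids, at 0.0752 TPM, which corresponds to 3 reads and is at the floor. Some genes of gastric-type epithelium were present in these samples. The 8 genes of that list summed to 4240 and 3199 TPM in co-cultured organoids, against 158 and 187 in EM organoids and 90.9 and 96.7 in DCs day 0. Tff1, Tff2 and Anxa10 made up nearly all of the co-culture sum, 3 and 4 of the 8 were at 0 there, among them Gkn1, Gkn2 and Gkn3, and Muc6 was lower than in DCs day 0 (10.5 to 0.0403 TPM, adjusted p = 0.00017).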

How the data were processed

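Single 50-base Smart-seq2 reads were, per the submitters' processing notes and the methods of the study, aligned to GRCm38 with STAR 2.5.0a, filtered at a mapping quality of 20 and counted per gene with featureCounts 1.6.0, without strand. The transwell values were deposited by the authors as RPKM and were scaled here to TPM in each sample. The homeostasis values were deposited as TPM, but were RPKM divided by column totals reused in a cycle of 12 down the table. Once this was undone, 91.2% to 94.1% of the values of at most 20 reads were whole numbers of reads, within 0.02 of a read, against 9.64% to 17.7% as deposited. The deposited values were analysed as they stand, and TPM with the reuse undone was an alternative, beside other scalings, filters, pseudocounts, a replicate block and fits without each sample. Reads counted in genes of unique symbol, as estimated from the values, were 19290000 to 28050000 per sample, and sequencing depth itself was not recovered. No columns were left without a sample, and 4 columns of authors' means were not used.

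Samples were grouped by their labels, and log2(value + 1) was fitted with limma 3.58.1 (R 4.3.3), with 1 mean per group over the 12 samples of an experiment and a mean-variance trend. Genes at 1 or more in at least 3 homeostasis samples (17028) or 2 transwell samples (18136) were tested, two-sided, with Benjamini-Hochberg adjustment over all of them and a threshold of 0.05. The limma comparisons of 2 groups were tested on simulated data, but the interaction term reported below was not. Other steps were run in Python 3.11.15. All members are named, with other claudin symbols at 1 or more in a sample and, from the other lists, at most the 3 largest called differences in each direction whose groups do not overlap, and results of some genes of those lists are not reported here. The members and lists were chosen with earlier results of these data known. Mice A, E and F each gave all 4 fractions, so that the letter pairs samples (correlations of same-mouse deviations 0.0102 to 0.0973). The study describes the 2 transwell replicates as biological, from littermates. Positions are of GENCODE M21, and promoter sequences of RefSeq.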

Additional observations from a re-analysis of the deposited data

Results flagged for a closer look

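From day 0 to day 15 of co-culture, 6 of the 9 claudins tested changed differently in ductal cells and in SCA1+Msc by a test of the difference itself (limma interaction term, n = 2 per group, 28.3% of all genes passed). Both changes begin from separate day 0 samples, and the SCA1+Msc day 0 samples held ductal, hepatocyte and endothelial markers, whose part in these differences was not tested. The 2 changes also span unlike times in culture. SCA1+Msc were expanded for 7 days before the co-culture, whereas DCs entered it freshly sorted. Cldn3 differed by 6.33 ± 0.27 on the log2 scale (adjusted p = 1.5e-06), with means that went from 1322 to 1910 TPM in ductal cells and from 63.8 TPM to 0 and 0.330 TPM in SCA1+Msc. Cldn1 differed by 5.55 ± 0.55 (adjusted p = 0.00013), from 1.51 to 9.11 TPM in ductal cells and from 10.7 TPM to 0 in both SCA1+Msc samples. Cldn7 differed by 4.98 ± 0.69 (adjusted p = 0.00078), from 2088 to 1296 TPM against 65.7 TPM to 0.405 and 0.0711 TPM. Cldn4 differed by 4.43 ± 0.46 (adjusted p = 0.00017), from 7712 to 934 TPM against 207 TPM to 0.174 (2 reads) and 0 TPM, so that it was lower after co-culture in both kinds of cells. Cldn5 went the other way, by -3.91 ± 0.50 (adjusted p = 0.0005), from 19.4 TPM to 0 in ductal cells and from 202 to 158 TPM in SCA1+Msc. Cldn2 was higher after co-culture in both, from 37.0 to 898 TPM and from 4.77 to 18.0 TPM, and differed by 2.54 ± 0.70 (adjusted p = 0.0233). The Cldn2 call was lost without either DC day 0 replicate, either co-cultured organoid replicate or replicate 1 of the co-cultured SCA1+Msc (adjusted p up to 0.0734), and its value was 1.55 without replicate 2 of SCA1+Msc day 0. Because values at 0 or a few reads enter these differences, their size and order depend on the scale, and with a pseudocount of 0.1 and with RPKM as deposited they were 8.79 and 5.06 for Cldn3, 9.32 and 3.69 for Cldn1, 7.01 and 3.77 for Cldn7, 7.13 and 3.08 for Cldn4 and -7.15 and -2.40 for Cldn5, all with the same direction and past the threshold.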

How the results depend on the processing

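Across the 56 claudin differences that passed, alternatives and left-out samples gave 619 values, of which 577 kept direction and side of the threshold, 42 kept direction only and 0 turned. With only the groups compared in the fit, the claudins called went from 4 to 8 between EM organoids and DCs day 0, from 3 to 6 between organoids and from 1 to 0 between SCA1+Msc in co-culture and alone. Over all genes, the alternatives gave 6325 to 8765 in place of 8045 between EM organoids and DCs day 0. Between organoids they gave 1383 to 3257 in place of 2348. A pseudocount of 0.1 gave 1 claudin between organoids, 2 between SCA1+Msc in co-culture and alone and 1 between the PDGFRα+ fractions in place of 0. Without a filter on low values, 1 claudin was called between organoids and 1 of 2 between PDGFRα-SCA1+ and PDGFRα+SCA1+ cells, and without a trend 1 between organoids. With 1 sample left out, the counts ran from 1 to 3 between PDGFRα-SCA1+ and PDGFRα+SCA1+ cells, were 1 between organoids, and ran from 0 to 1 between SCA1+Msc in co-culture and alone. The cause was not tested.

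The mouse as a replicate block changed no claudin count in the homeostasis experiment, and lowered the count over all genes between the PDGFRα+ fractions from 100 to 20. Transwell replicates share only a number (correlations 0.00428 to 0.0295). There the replicate block gave 5 claudins in place of 4 for EM organoids against DCs day 0, 5 in place of 6 for co-cultured organoids, where Cldn3 was lost (adjusted p = 0.0626), and 5 genes in place of 23 between SCA1+Msc in co-culture and alone. Over all genes, only the groups compared gave 6921 in place of 4054 between DCs and PDGFRα+SCA1+ cells, 4 between the PDGFRα+ fractions and 0 between SCA1+Msc in co-culture and alone. The PDGFRα+ fractions gave 51 genes without the filter and 54 under quantile normalization, and as few as 6 with 1 sample left out, where SCA1+Msc in co-culture and alone gave 0 to 27. Without the filter, 1383 genes passed in place of 2348 between organoids, 58 between SCA1+Msc in co-culture and alone and 3411 in place of 5129 for the difference of changes. The last SCA1+Msc comparison gave 40 with a pseudocount of 0.1 and 15 with a minimum of 5. Quantile normalization moved the median over all genes from 0.47 to 0.14 between DCs and PDGFRα+SCA1- cells and the share of higher calls from 65.4% to 53.9%, from 58.1% to 45.7% between PDGFRα-SCA1+ and PDGFRα+SCA1+ cells and from 74% to 57.4% between the PDGFRα+ fractions. Between organoids the share of higher calls went from 44.3% to 54.1%. Values under 3 reads are not told apart from 0.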

Other observations

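Beyond the 10 genes, 25 further claudin symbols were in the tables and few were expressed. Cldn8, a claudin of the distal nephron and colon, averaged 51.6 ± 5.15 (SD, n = 3) in homeostasis DCs, with no stromal sample above 0.237. In the transwell experiment it was 147 and 212 TPM in EM organoids, against means of 18.3 ± 0.932 in DCs day 0 and 48.4 ± 5.40 in co-cultured organoids (n = 2). It rose by 3.20 ± 0.29 (SE) on the log2 scale in EM organoids (limma, adjusted p = 2.1e-05) and was 1.85 lower in co-cultured than in EM organoids (difference -1.85 ± 0.29, adjusted p = 0.00288). Cldn23 went from 21.9 TPM in DCs day 0 to 6.43 ± 1.31 TPM in EM organoids (difference -1.63 ± 0.39, adjusted p = 0.00769), and stood at 18.2 ± 4.29 TPM in co-cultured organoids. Cldn9 was 0.391 and 9.06 TPM in EM organoids and 11.1 and 3.33 TPM in co-cultured organoids, and at 0 in the other transwell samples. Cldn15, a cation pore claudin of the intestine, was 23.9 ± 9.59 in PDGFRα-SCA1+ cells and 0.381 in DCs (DCs minus PDGFRα-SCA1+ -4.18 ± 0.83, adjusted p = 0.00266). The others at 1 or more in at least 1 sample were Cldn11, Cldn14, Cldn17, Cldn19, Cldn34c1 and Cldn34d.

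Among the 8 gastric-type genes, Tff2, a secreted peptide of gastric mucus cells, averaged 2282 TPM in co-cultured organoids, where Cldn18 did not exceed 3 reads. Tff1 averaged 1208 TPM there, with replicates at 767 and 1650 TPM, and Anxa10 229 TPM. The rest of the list was low or absent in the same samples. Gkn1, Gkn2 and Gkn3 were at 0, and Muc5ac averaged 0.260 TPM and Muc6 0.0403 TPM.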
